A study of Arabidopsis thaliana with 16 samples.

Results

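The 5 genes described here encode the small subunits of Rubisco and the enzyme that keeps Rubisco active. They are RBCS1A (AT1G67090), RBCS1B (AT5G38430), RBCS2B (AT5G38420), RBCS3B (AT5G38410) and RCA (AT2G39730). They were chosen by their locus identifiers, and all 5 were found among the 69252 entries of each comparison table, of which 27652 are protein-coding genes. All 5 were tested in both tables, so no filter on low values removed any of them.

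Rubisco fixes carbon dioxide in the chloroplast stroma, the first step of the Calvin-Benson cycle, and also binds oxygen, which starts photorespiration. In land plants the large subunit is encoded by a chloroplast gene and the small subunits by a nuclear gene family, and the holoenzyme needs both. RCA, Rubisco activase, is a nuclear-encoded ATPase that removes inhibitory sugar phosphates from the active site. The RBCS and RCA genes are known for their induction by light and for very high transcript levels in green tissue.

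The study profiled whole Arabidopsis thaliana seedlings of the Columbia-0 ecotype, frozen on day 10, with 8 RNA-seq and 8 bisulfite sequencing libraries. The values analysed here cover 3 RNA-seq groups with 2 replicates each, which the labels describe as biological. Col-0, the wild type, was grown in white light (60 mE), Col-0 was grown in the same light with 1.5 mE of UV-B at 315 nm, and dd was grown in white light. The line dd carries T-DNA insertions drm1-2 and drm2-2 in a pair of DNA methyltransferase genes of RNA-directed DNA methylation. The UV-B-treated dd plants and the bisulfite libraries were not analysed here. Expression is given in FPKM, which divides fragment numbers by transcript length and by library size. Each group has 1 pooled value, and its replicates cannot be seen apart. The test between groups is the authors' own, and a change is called here at q under 0.05, a p-value adjusted over all tested entries. Both comparisons use the same Col-0 white-light libraries, whose values differ between the tables by a factor of 1.01.

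Read totals were not analysed here. Judged by the lowest nonzero values of isolated transposon entries, the Col-0 white-light libraries were roughly 3 times as deep as dd and 2.8 times as deep as Col-0 under UV-B. Each ratio rests on a single lowest value per group and is coarse. Markers of both organs were present, as whole seedlings imply: none of 8 shoot and leaf markers and none of 10 root markers was listed at 0 in any group. A value above 0 is a weak standard, and the root markers PLT1, PLT2, NRT2.1 and WOX5 lay under 1 FPKM in Col-0 in white light. Of the 10 root markers, 4 were not tested in dd and 3 were not tested under UV-B. In these bulk samples, fewer cells of a type and less RNA per cell cannot be told apart.

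The genes sit at 3 places in the TAIR10 genome. RBCS1A has a locus range of its own on chromosome 1, from 25048158 to 25049667. RCA lies on chromosome 2 in a locus range from 16569430 to 16573692, which it shares with AT2G39725. Set side by side in the authors' deposited table for dd, that neighbour had 6.97 FPKM and RCA 4729 FPKM in Col-0. RBCS3B (15376988 to 15378642), RBCS2B (15380907 to 15382071) and RBCS1B (15383167 to 15385320) follow each other on chromosome 5 within 8333 bp. Gaps of 2264 bp and 1095 bp separate their locus ranges. That of RBCS1B also holds 2 transposon entries, the higher of which had 0.846 FPKM in Col-0 by the authors' deposited table for dd. Around this array, none of the 5 nearest entries before it, the 5 after it or the 2 non-coding RNAs within it was tested, and their highest value under UV-B, taken from the authors' deposited table, was 0.205 FPKM. High expression on this stretch of chromosome 5 was therefore limited, among these entries, to the RBCS genes. The RBCS transcripts resemble each other in sequence, most of all those on chromosome 5, so reads may be split between copies or left out. The level of a single RBCS gene is therefore uncertain. How shared reads were counted was not examined here, so the sum and the shares of the RBCS genes may be affected too.

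In Col-0 in white light, the RBCS genes held a steep order. The authors' deposited table for UV-B listed RBCS1A at 11790 FPKM, RBCS3B at 5071 FPKM, RBCS2B at 2797 FPKM and RBCS1B at 1194 FPKM. RBCS1A was thus 9.88 times as high as RBCS1B per unit of length. RCA, at 4689 FPKM in the same deposited table, stood between RBCS3B and RBCS2B. By level, RBCS1A ranked 3, RBCS3B 12, RCA 13, RBCS2B 30 and RBCS1B 80 among all entries. The 4 RBCS genes together reached 20853 FPKM, or 2.35% of the summed FPKM of nuclear protein-coding genes. With no value per replicate, whether close neighbours in this order, such as RBCS3B and RCA, differ beyond their spread cannot be stated.

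**Figure D1:**
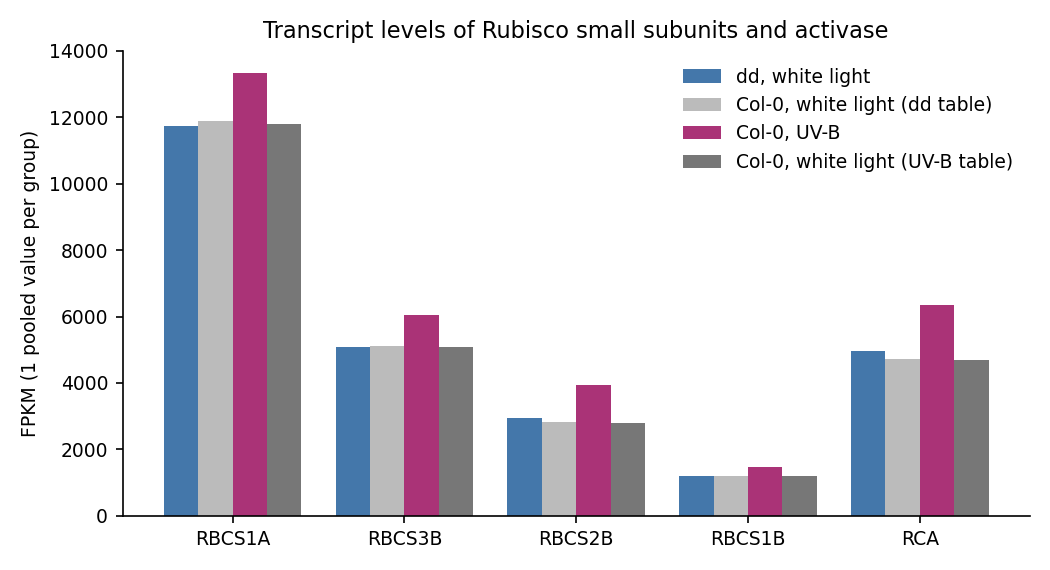
Levels of the 5 genes in FPKM (vertical axis, linear from 0), 1 bar per pooled group, with the Col-0 white-light value of each comparison table shown separately. The dd bars lie close to their Col-0 bars, while each UV-B bar is above its Col-0 bar, by 1550 FPKM for RBCS1A and 1149 FPKM for RBCS2B.

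The large subunit could be read only in part. RBCL (ATCG00490), the chloroplast gene for it, stood, in the authors' deposited table for UV-B, at 14.7 FPKM in Col-0 in white light, against 20853 FPKM for the summed small subunits. The libraries were made with a poly(A)-type mRNA kit, per the labels' protocols, and chloroplast transcripts mostly lack stable poly(A) tails. The level of RBCL here therefore does not measure the plastid mRNA pool. By the authors' deposited tables it was at 13.2 FPKM with UV-B (q = 0.964), and at 13.6 FPKM in dd against 14.8 FPKM in Col-0 (q = 0.999).

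The first comparison asked whether loss of DRM1 and DRM2 altered transcript levels in white light. None of the 5 genes was called in dd, and their levels differed from Col-0 by between -1.20% (RBCS1B) and 5.14% (RCA). RBCS1A was listed in the authors' deposited table at 11750 FPKM in dd and 11892 FPKM in Col-0. For RBCS3B the authors' deposited table gave 5085 FPKM in dd and 5115 FPKM in Col-0, and for RBCS1B it gave 1190 and 1204 FPKM. These 3 genes lay slightly below Col-0. RBCS2B lay slightly above it, with 2930 FPKM in dd against 2821 FPKM in Col-0 by the authors' deposited table. The widest gap of the 5 was that of RCA, with 4972 FPKM in dd and 4729 FPKM in Col-0 by the authors' deposited table (log2 change 0.07).

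For all 5 the authors' deposited table gave q = 0.999, and no member reached an unadjusted p under 0.05. Over all 20416 tested entries, 0.264% were called higher and 0.157% lower in dd, and 3.71% had an unadjusted p under 0.05 in either direction, so 0 of 5 called is near the background. The approximate 95% intervals, obtained from the authors' p-values, run from -0.30 to 0.26 on the log2 scale for RBCS1A and from -0.21 to 0.36 for RCA. With a standard error from the authors' test statistic they were wider, from -0.43 to 0.39 for RBCS1A and from -0.34 to 0.48 for RCA. Changes within these intervals are not shown to be absent. The summed RBCS level was 20956 FPKM in dd and 21033 FPKM in Col-0, a difference of -0.366%. The median log2 change of the 5 genes was -0.01, against 0.00 over all tested entries with values above 0.

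**Figure D2:**
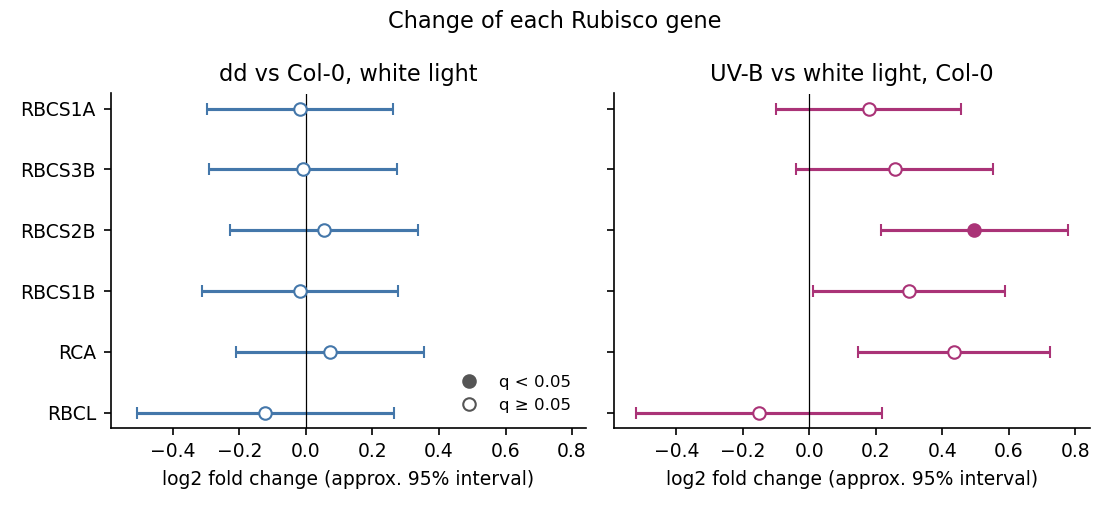
Log2 fold changes (horizontal axis) of the 5 genes and of RBCL in dd against Col-0 (left) and under UV-B against white light (right), with approximate 95% intervals derived from the authors' p-values. Filled points have q under 0.05: RBCS2B under UV-B (0.50) is the single one, and all 6 intervals in dd include 0.

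The second comparison asked what UV-B did to transcript levels in Col-0. RBCS2B rose by 41.1%, the authors' deposited table listing 2797 FPKM in white light and 3946 FPKM with UV-B (q = 0.0187). RCA followed closely by size, with 6343 FPKM with UV-B and 4689 FPKM in white light, but by the authors' deposited table it did not pass (q = 0.0697). The other 3 small subunit genes had higher values under UV-B as well and did not pass.

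RBCS1B had, by the authors' deposited table, 1469 FPKM with UV-B and 1194 FPKM without (q = 0.388). For RBCS3B the authors' deposited table gave 6058 FPKM with UV-B and 5071 FPKM without (q = 0.575). RBCS1A, the most abundant member, stood at 13340 FPKM with UV-B and 11790 FPKM without by the authors' deposited table (q = 0.800). All 5 values were thus higher under UV-B, in an order of log2 changes from RBCS2B (0.50) through RCA (0.44), RBCS1B (0.30) and RBCS3B (0.26) to RBCS1A (0.18). The member with the highest level had the smallest relative change, while the least abundant one did not have the largest.

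The approximate 95% interval of the log2 change was 0.21 to 0.78 for RBCS2B and 0.15 to 0.72 for RCA. It was 0.01 to 0.59 for RBCS1B, -0.04 to 0.55 for RBCS3B and -0.10 to 0.46 for RBCS1A. The interval of RBCS2B overlaps those of the other 4 genes. The difference in response between members was not tested, since each group has 1 pooled value. The RBCS genes may also share reads. That RBCS2B alone passed does not show that it responded differently from RCA or from its neighbours in the array.

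At q under 0.05, 1 of 5 members was called higher, where 2.04% of the 20595 tested entries were called higher and 1.81% lower. At an unadjusted p under 0.05, 3 of 5 members were higher (RBCS2B, RCA and RBCS1B), against 6.03% of all tested entries higher and 5.64% lower. The median log2 change of the 5 genes was 0.30, against 0.00 over the 20390 tested entries with values above 0. Among the 90 tested entries with at least 1000 FPKM in both groups, a set to which all 5 members belong, the median was 0.00 and 51.1% of the values were higher under UV-B. Among the 1377 tested entries with at least 100 FPKM in both groups, the median was 0.06 and 65.6% of the values were higher.

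The summed RBCS level was 24813 FPKM under UV-B and 20853 FPKM in white light, 19.0% higher, and its part of all nuclear protein-coding FPKM went from 2.35% to 2.73%. Of the difference of 3960 FPKM, RBCS1A contributed 39.1%, RBCS2B 29.0%, RBCS3B 24.9% and RBCS1B 6.94%. RBCS1A thus added most in absolute terms despite its small relative change, and RBCS2B added more than RBCS3B although it started from a lower level. RCA was equal to 22.5% of the summed RBCS level in white light and 25.6% under UV-B. In dd that ratio was 23.7%. By rank among all entries, RCA moved from 13 to 6 under UV-B, RBCS2B from 30 to 18, RBCS3B from 12 to 8, RBCS1A from 3 to 2 and RBCS1B from 80 to 70.

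The make-up of the small subunit transcripts was close in the 3 groups. RBCS1A made up 56.5% of the summed RBCS FPKM in Col-0 in white light, 56.1% in dd and 53.8% under UV-B. RBCS2B made up 13.4% in Col-0, 14.0% in dd and 15.9% under UV-B. The shares of RBCS3B (24.3%, 24.3% and 24.4%) and RBCS1B (5.73%, 5.68% and 5.92%) moved by less than 1 percentage point. Within the array on chromosome 5, RBCS2B held 30.9% in Col-0 in white light and 34.4% under UV-B. These shares have no replicate error and were not tested.

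**Figure D3:**
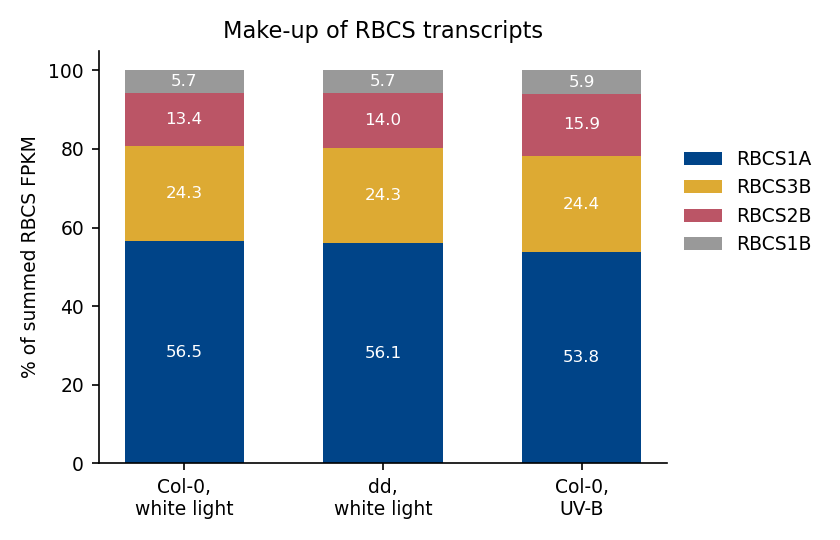
Share of each RBCS gene in the summed RBCS FPKM (vertical axis, percent) in the 3 groups, printed in each segment. RBCS1A makes up more than any other RBCS gene in every group, and the RBCS2B segment is 13.4% in Col-0 in white light and 15.9% under UV-B.

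The other enzymes of carbon fixation were examined next to the members. This list and those that follow were chosen with earlier results of these data known, so their counts are descriptions and not independent support. Of 19 Calvin-Benson cycle genes tested, the authors' deposited table called 1 higher under UV-B and 0 lower, which with so few genes is near the share of all tested entries (2.04% higher and 1.81% lower). The called gene, SBPASE, sedoheptulose-1,7-bisphosphatase of the regeneration phase, rose, by the authors' deposited table, from 512.1 FPKM in white light to 719 FPKM (q = 0.0236). FBA2, a plastid aldolase and the most abundant gene of the list, was listed by the authors' deposited table at 1980 FPKM with UV-B and 1474 FPKM without, and did not pass (q = 0.0844). At an unadjusted p under 0.05, 9 of the 19 genes were higher and 1 lower, against 6.03% and 5.64% of all tested entries. By value 17 of 19 were higher, with a median log2 change of 0.25. Of all tested entries 50.0% with values above 0, and 65.6% with at least 100 FPKM in both groups, were higher under UV-B. In dd, compared with the same Col-0 libraries, also 17 of 19 were higher by value, with a median of 0.08, and none was called or had an unadjusted p under 0.05. There the share of higher values was 50.9% over all tested entries with values above 0 and 59.4% at 100 FPKM or more. Over all tested entries 0.264% were called higher and 0.157% lower in dd, and 3.71% had an unadjusted p under 0.05. The absence of calls among 19 genes is near that background.

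Photorespiration, the pathway that recycles the product of Rubisco's oxygenase reaction, was examined in the same way. Of its 17 tested genes the authors' deposited table called 5 higher and 0 lower under UV-B, against 2.04% and 1.81% of all tested entries. All 17 values were higher, with a median log2 change of 0.36. The share of higher values was 50.0% over all tested entries with values above 0 and 65.6% at 100 FPKM or more in both groups. Not all of the 17 genes reach that level, with GLDP2 and PGLP1B among those below it in white light. CAT2, the leaf catalase that removes peroxisomal hydrogen peroxide, rose, by the authors' deposited table, from 400.9 FPKM in white light to 847 FPKM (q = 0.00249, the smallest q in that table). GLDP2 and GLDP1, the P-protein genes of glycine decarboxylase, rose, by the authors' deposited table, from 86.7 FPKM to 147 FPKM and from 201 FPKM to 310 FPKM (q = 0.00249 each). The others that the authors' deposited table called were GLU1, a ferredoxin-dependent glutamate synthase (q = 0.0159), and HPR1, a peroxisomal hydroxypyruvate reductase (q = 0.0388). SHM1, a mitochondrial serine hydroxymethyltransferase and the most abundant of the list in white light, stood by the authors' deposited table at 1305 FPKM with UV-B and 1101 FPKM without (q = 0.598). In dd none of 16 tested genes was called or had an unadjusted p under 0.05, although all 16 values were higher than in Col-0, with a median log2 change of 0.10. Of all tested entries 50.9% with values above 0, and 59.4% with at least 100 FPKM in both groups, were higher in dd. Only 0.264% of all tested entries were called higher in dd and 0.157% lower, and 3.71% had an unadjusted p under 0.05. The absence of calls among 16 genes is near that background. The duplicated phosphoglycolate phosphatase genes PGLP1A and PGLP1B stood, by the authors' deposited table for UV-B, at 0.560 and 0.842 FPKM in Col-0 in white light. Levels of such near-identical copies are uncertain, and PGLP1A was not tested in either table.

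Of 13 genes for folding and assembly of Rubisco, the authors' deposited table called 0 higher and 1 lower under UV-B, against 2.04% and 1.81% of all tested entries. RBCX1, an assembly chaperone for the large subunit, fell, by the authors' deposited table, from 44.5 FPKM in white light to 19.0 FPKM (q = 0.0378). Its locus range also holds AT4G04320 and the transposon entry AT4TE10030, so its level is uncertain. The transposon entry stood by the authors' deposited table at 52.2 FPKM in white light and 32.04 FPKM with UV-B (q = 0.998). RBCX2, its relative, stood by the authors' deposited table at 88.3 FPKM with UV-B and 67.7 FPKM without (q = 0.193). CPN20, the co-chaperonin and the most abundant of the list, stood there, by the authors' deposited table, at 844 FPKM with UV-B and 745.6 FPKM without (q = 0.834). By value 10 of 13 assembly genes were higher under UV-B, with a median log2 change of 0.15, and 10 of 13 were also higher in dd, with a median of 0.05. Of tested entries with at least 10 FPKM in both groups, 56.1% were higher under UV-B and 53.8% in dd. At 100 FPKM or more these shares were 65.6% and 59.4%. In dd none of the 13 assembly genes was called or had an unadjusted p under 0.05. The carbonic anhydrase genes CA1 and CA2 had log2 changes of 0.41 and 0.31 under UV-B, for which the authors' deposited table gave an unadjusted p of 0.009 and 0.0361, and neither passed q 0.05. In dd neither was called or had an unadjusted p under 0.05. With 0.264% of all tested entries called higher in dd, 0.157% lower and 3.71% at an unadjusted p under 0.05, the absence of calls in these lists is near the background.

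**Figure D4:**
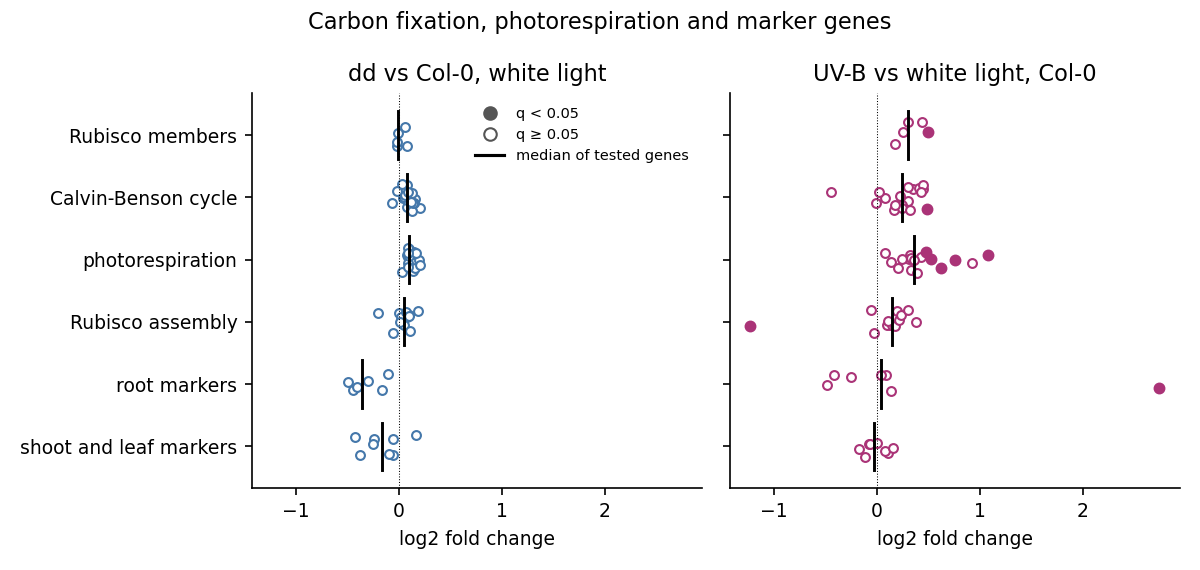
Log2 fold changes (horizontal axis) of each tested gene by list in dd (left) and under UV-B (right), with filled points at q under 0.05 and a black bar at the median of the tested genes. Under UV-B the medians of the Rubisco genes (0.30), the Calvin-Benson cycle (0.25) and photorespiration (0.36) lie above 0, and no point is filled in dd.

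Organ markers were set beside these values. The summed level of 10 root markers was 77.8 FPKM under UV-B and 88.6 FPKM in white light, and that of 8 shoot and leaf markers 107.8 and 107.9 FPKM. By value 4 of 7 tested root markers lay above white light and 3 below it (median log2 change 0.04), and 4 of 8 shoot and leaf markers were higher and 4 lower. Of all tested entries with values above 0, 50.0% were higher under UV-B. Among them NRT2.1, a nitrate transporter of roots that also responds to nutrient supply, was the only one that the authors' deposited table called under UV-B, from 0.355 FPKM up to 2.38 FPKM (q = 0.00648). Over all tested entries 2.04% were called higher and 1.81% lower, and with so few markers a single call says little beside these shares. CASP1, an endodermal gene and the highest root marker, stood by the authors' deposited table at 33.2 FPKM with UV-B and 46.4 FPKM without (q = 0.231), a gap wider than that of the summed root markers. FIL, a YABBY gene of leaf primordia and the highest of the shoot and leaf markers, stood by the authors' deposited table at 35.6 FPKM with UV-B and 35.4 FPKM without (q = 0.998). In dd the root markers summed to 73.0 FPKM against 89.4 FPKM in Col-0, with all 6 tested values lower (median log2 change -0.36) and none called or with an unadjusted p under 0.05. The shoot and leaf markers summed to 101.8 FPKM in dd and 108.8 FPKM in Col-0, with 7 of 8 values lower and a median log2 change of -0.17, and again none was called or had an unadjusted p under 0.05. Of all tested entries with values above 0, 50.9% were higher in dd. Over all tested entries 0.264% were called higher and 0.157% lower there, and 3.71% had an unadjusted p under 0.05. The absence of calls among so few markers is near that background. The part of organ proportions in the Rubisco values was not tested.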

How the data were processed

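Whole-seedling RNA-seq values were taken from a pair of comparison tables. Per the submitters' processing notes, the build was TAIR10 and the tools were BSMAP, Cufflinks, HISAT2 and Trimmomatic. Their versions and their order are not stated there. The deposited expression values are FPKM, 1 pooled value per group, per the file headers. A p-value, a q-value and a test statistic (a score) per entry are the authors' own, as deposited. The q-values equal Benjamini-Hochberg values of the p-values over all tested entries. Log2 fold changes were computed with Python 3.11.15 and pandas 2.3.3 as each group's value divided by the Col-0 white-light value, without a pseudocount. The authors' own fold column runs the other way and was left aside.

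An approximate standard error was the log2 change divided by the normal quantile of the authors' p (scipy 1.17.1), and intervals are at 95%. It is given for the members and RBCL. No test across replicates beyond the authors' own was possible. Relative depth came from transposon entries over 1.2 kb long that share no locus range, taking the lowest product of value and length above 0.01. The medians of the products near the lowest were 0.128 in dd against 0.0347 in Col-0, and 0.0883 under UV-B against 0.0344. They give somewhat different ratios. Coordinates are locus ranges of the tables, written 1-based. Gene names came from the lists; 75 of 76 listed identifiers were found in the RefSeq table of TAIR10.1. No sequence of the members was used here.

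The members and the 7 other gene lists were chosen with earlier results of these data known. Named genes are the 5 members, RBCL, up to 3 called genes with the largest change in each list and the most abundant one in each list, the entries beside the chromosome 5 genes, and the nearest genes. GLU1, HPR1, RBCX2, CA2 and the PGLP1 pair were chosen after their values were seen. Alternatives were a q threshold of 0.01, unadjusted p, adjustment over protein-coding genes only, a log2 change of at least 1, pseudocounts of 1 and 100 FPKM, other scalings and a minimum of 1 FPKM. The scripts were tested on simulated data with known changes.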

Additional observations from a re-analysis of the deposited data

How the results depend on the processing

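No paired analysis was possible because the tables hold 1 pooled value per group, and for the same reason no replicate could be left out. The scalings shifted all log2 changes by at most 0.05, and over scalings and pseudocounts the log2 change stayed between 0.44 and 0.50 for RBCS2B, 0.38 and 0.44 for RCA and 0.13 and 0.18 for RBCS1A under UV-B. The number of members called higher under UV-B was 1 at q 0.05, 0 at q 0.01, 0 with a log2 change of at least 1 and 3 at an unadjusted p under 0.05; adjustment over protein-coding genes only left it at 1. At q 0.01 the calls under UV-B became 0 for RBCX1 in the assembly list, 0 higher in the Calvin-Benson cycle and 3 higher in photorespiration. At an unadjusted p under 0.05 they became 9 higher and 1 lower in the Calvin-Benson cycle, 13 higher in photorespiration, 1 higher in assembly, 2 higher in carbonic anhydrases and 1 lower in root markers. Over all tested entries, 6.03% were higher and 5.64% lower under UV-B at that threshold. The RBCS2B share under UV-B was higher by 2.49 percentage points of all RBCS (from 13.4% to 15.9%). Within chromosome 5 it was higher by 3.53 points (from 30.9% to 34.4%). The starting shares differ, so the larger number of points is not a larger relative shift. In dd no list gained a call under these settings. With a standard error from the authors' test statistic, an alternative chosen after seeing the data, the intervals under UV-B widened to 0.08 to 0.91 for RBCS2B, 0.03 to 0.84 for RCA and -0.12 to 0.72 for RBCS1B, which then included 0. In dd the same alternative widened the intervals to -0.43 to 0.39 for RBCS1A and -0.34 to 0.48 for RCA. The effect of depth on these values was not measured.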

Other observations

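Genes whose pair of log2 changes lay nearest to that of a member were looked for among 1377 protein-coding genes with at least 100 FPKM in Col-0 in white light. The measure is the Euclidean distance over the changes in dd and under UV-B, which rest on 3 pooled groups and share the Col-0 libraries, so it is a weak guide. Nearest to RCA were AT2G42690, HDR, the last enzyme of the plastid isoprenoid precursor pathway, and FBA2 (distance 0.01, 0.01 and 0.02). HDR had 341 FPKM under UV-B and 252 FPKM in white light in the authors' deposited table (q = 0.0719). Nearest to RBCS2B were AT1G18060, AT5G51010 and SDR1, with log2 changes of 0.48, 0.48 and 0.47 under UV-B, none of which passed q 0.05 in the authors' deposited table. Nearest to RBCS1A were AT1G67350, RAN-1, a small GTPase of nuclear transport, and AKR2, an ankyrin-repeat protein, with log2 changes of 0.18, 0.18 and 0.17 under UV-B.

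Summed plastid-encoded entries had 1484 FPKM under UV-B and 1916 FPKM in white light, while RBCS and RCA had higher values under UV-B. In dd the plastid sum was lower as well, at 1733 FPKM against 1933 FPKM in Col-0, where the summed RBCS level was 20956 against 21033 FPKM. The plastid sum depends on how much plastid RNA passed the mRNA selection, whose part in these differences was not tested.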
